A study of Mus musculus with 24 samples.

Results

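Messenger RNA in the hippocampus of old mice lacking apolipoprotein D (ApoD) was compared with that of old wild-type mice. The comparison is between the 6 arrays whose titles name old hippocampus, 3 of ApoD knockout (KO) and 3 of wild type (WT), out of 24 arrays in the series. The error of each difference was estimated from the spread within all 8 groups of the 24 arrays. All mice were male C57BL/6J animals, and the old ones were 655 days of age. Each array was hybridized with equal amounts of total RNA pooled from 2 to 3 randomly drawn mice, so a p-value measures the spread between pools and not between single animals. The other 18 arrays hold KO and WT hippocampus of young mice, 100 days of age, and KO and WT cortex at both ages, again with 3 pools per group. The labels name the knockout only as ApoD-KO, with no account of the allele, and they give no treatment and no hybridization batch.

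ApoD is a small secreted lipid carrier of the lipocalin family. In the brain it is made mainly by glial cells, it binds arachidonic acid and related lipids, and it is known for its part in the defence against lipid peroxidation. Its messenger RNA is known to rise in the ageing brain. The series set out to learn which effects of ApoD loss on age-dependent expression are particular to cortex and which to hippocampus.

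The deposited values are log2 signals of 23879 Ensembl gene IDs. No table used here pairs these IDs with gene names, with 0 of the 23879 matched, so transcripts are given by ID, at most 2 in each direction, and no role is given to any of them. For the same reason the tissue label was not checked against marker genes. As a check that needs no names, the 100 IDs highest and the 100 IDs lowest in hippocampus relative to cortex were taken from the young WT arrays, and the difference between their mean signals was computed for each old array. It lay between 1.51 and 1.64 log2 on the old KO hippocampus arrays and between 1.55 and 1.66 on the old WT hippocampus arrays. On the old cortex arrays it lay between -1.77 and -1.68 in KO and between -1.78 and -1.74 in WT. All 6 hippocampus arrays were thus on the side their labels name.

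The 6 arrays were much alike. Across the 14327 IDs bright enough to be tested, correlations between pairs of arrays were 0.9937 to 0.9959 within KO, 0.9952 to 0.9959 within WT, and 0.9930 to 0.9964 between a KO and a WT array. The pairs of unlike genotype therefore reached values as high as pairs of the same genotype. KO replicate 1 was the least like the others, with correlations of 0.9930 to 0.9946 and a root mean square deviation from its group mean of 0.0990 log2, against 0.0773 to 0.0884 for the other 5 arrays. The median within-group SD was 0.0765 log2 in old KO and 0.0667 log2 in old WT hippocampus.

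One transcript set the genotypes apart. ENSMUSG00000022548 had signals of 8.29, 8.21 and 8.24 log2 on the KO arrays, against 12.55, 12.25 and 12.66 log2 on the WT arrays. The groups were far from overlapping, and the KO pools lay closer to each other than the WT pools. The reverse held in young hippocampus (SD 0.12 log2 in KO, 0.09 in WT), old cortex (0.10 and 0.06) and young cortex (0.13 and 0.07). In old hippocampus the mean of this ID was 8.25 ± 0.04 log2 in KO and 12.49 ± 0.21 log2 in WT (SD, n = 3 each). It fell by 4.23 log2 in KO hippocampus (SE 0.088, 95% interval -4.42 to -4.05), an 18.8-fold lower signal, with limma adjusted p = 1.0e-18. Whether this ID is the targeted gene is not settled by the sources used here, so it checks the genotype labels only in that it separates the pools exactly as they are labelled.

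It was the 1 ID called at an adjusted p under 0.05 among 14327 tested, 0.00698% of them. No ID rose: the count of higher IDs past the threshold was 0 with limma, while 434 IDs (3.03%) had an unadjusted p under 0.05, of which 252 (1.76%) were higher and 182 (1.27%) lower. The 3 KO arrays did not overlap the 3 WT arrays in 1279 IDs (8.93%), with KO above WT in 748 (5.22%) and below in 531 (3.71%). Both criteria together, no overlap and an unadjusted p under 0.05, were met by 166 higher IDs (1.16%) and 114 lower IDs (0.796%). With no genotype difference, an average share of 0.05 of the IDs would have an unadjusted p under 0.05, so 3.03% is no excess. Arrays of 3 against 3 also fail to overlap in part of the IDs without any difference.

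**Figure D1:**
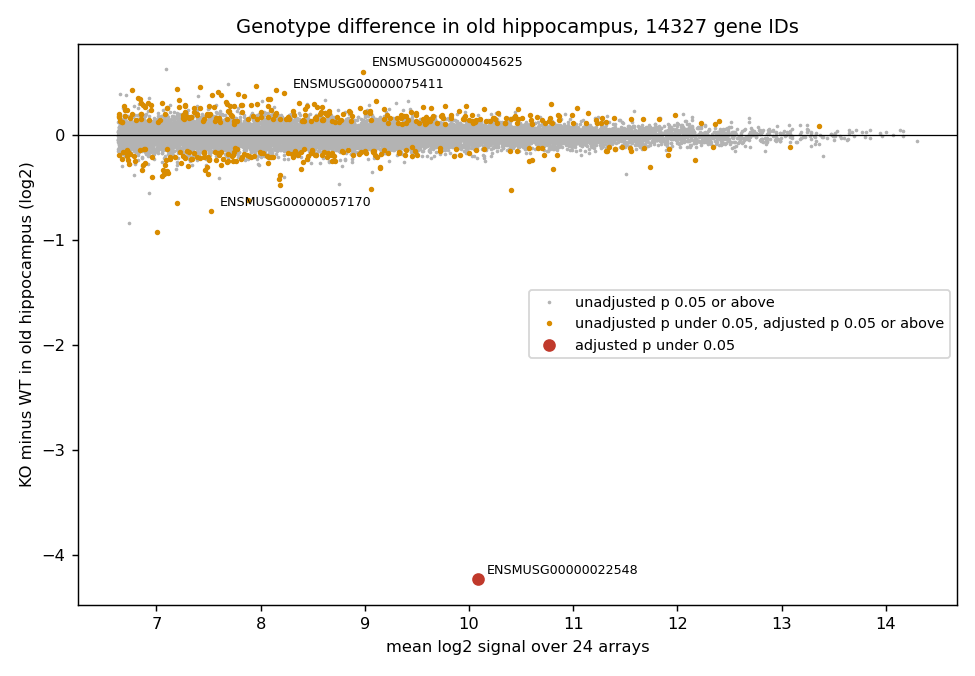
Difference between KO and WT old hippocampus (vertical axis, log2) of each of the 14327 tested IDs against its mean log2 signal over the 24 arrays (horizontal axis). The 1 ID past the adjusted threshold (red) lies at -4.23, while all other IDs lie between -0.92 and 0.63. The 433 of them with an unadjusted p under 0.05 (orange) are spread over all signal levels.

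Apart from that ID, changes were small. Among the other IDs the 5th and 95th percentiles of the difference were -0.12 and 0.13 log2, the 1st and 99th percentiles -0.20 and 0.21 log2, and the extremes -0.92 and 0.63 log2. In whole tissue, fewer cells of a type and less RNA per cell cannot be told apart in differences of this size. A difference beyond 0.25 log2 (1.19-fold) was estimated for 85 higher and 63 lower IDs, beyond 0.5 log2 (1.41-fold) for 2 higher and 9 lower IDs, and beyond 1 log2 (2-fold) for 0 higher and 1 lower ID, the one called. These sizes can be set against their error. The 95% interval of the difference lay wholly within 0.25 log2 of 0 for 10045 IDs (70.1%), within 0.5 log2 for 13980 (97.6%), and within 1 log2 for 14310 (99.9%). For nearly all tested IDs the interval of the signal difference in old hippocampus thus stayed below 2-fold, and for most of them below 1.19-fold. These intervals hold for 1 ID at a time and take their spread from all 24 arrays. They concern array signal, and for dim IDs a narrow interval need not bound the difference in transcript.

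Differences beyond 0.25 log2 were most frequent among dim transcripts. When the tested IDs were split into 4 classes of equal size by mean signal, the dimmest class (6.63 to 7.78 log2) had a median SE of 0.0853 log2 and held 81 of the 148 differences beyond 0.25 log2. The brightest class (10.06 to 14.3 log2) had a median SE of 0.0598 log2 and held 9 of them. The share of IDs with an unadjusted p under 0.05 was 4.30% in the dimmest class, 3.15% and 2.40% in the middle classes, and 2.26% in the brightest. The signal below which a value is background was not given, so folds of dim IDs are uncertain.

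Next to the called ID, 3 others were named by a fixed rule, as those with the largest difference in their direction among IDs with no overlap and an unadjusted p under 0.05. They were chosen for their difference, so its size is likely overstated. ENSMUSG00000045625 had 9.01, 9.56 and 9.30 log2 in KO, against 8.65, 8.62 and 8.77 log2 in WT. All 3 KO pools lay above the highest WT pool, and KO replicate 1, the array least like the others, lay nearest to WT. The means were 9.29 ± 0.27 log2 in KO and 8.68 ± 0.08 log2 in WT (SD, n = 3 each), a difference of 0.61 log2 (SE 0.11, 1.52-fold, 95% interval 0.38 to 0.84). Its unadjusted p of 2.1e-05 ranked second of all IDs, and its limma adjusted p of 0.148 missed the threshold. Without KO replicate 1 the difference was 0.75 log2 and passed it (limma adjusted p = 6.3e-03), as it did with array weights (0.72 log2, adjusted p = 1.6e-03), but in fits to the 12 hippocampus arrays or to the 6 old ones alone the adjusted p was 0.9999 and 0.994.

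ENSMUSG00000075411 had 8.70, 8.71 and 8.32 log2 in KO, against 8.27, 8.10 and 8.16 log2 in WT. A pair of KO pools stood well above WT, while KO replicate 3 was only just above WT replicate 1. The difference was 0.40 log2 (SE 0.11, 1.32-fold, limma adjusted p = 0.9995). In the other direction, ENSMUSG00000057170 had 6.65, 7.18 and 7.41 log2 in KO, against 8.31, 7.41 and 7.69 log2 in WT. The highest KO and the lowest WT pool nearly touched, at 7.408 and 7.409 log2, and both groups were widely spread, with means of 7.08 ± 0.39 log2 in KO and 7.80 ± 0.46 log2 in WT (SD, n = 3 each). The difference was -0.72 log2 (SE 0.28), with a 95% interval of -1.32 to -0.13 log2 and a limma unadjusted p of 0.019. It missed the threshold after adjustment over all tested IDs (limma adjusted p = 0.9995).

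**Figure D2:**
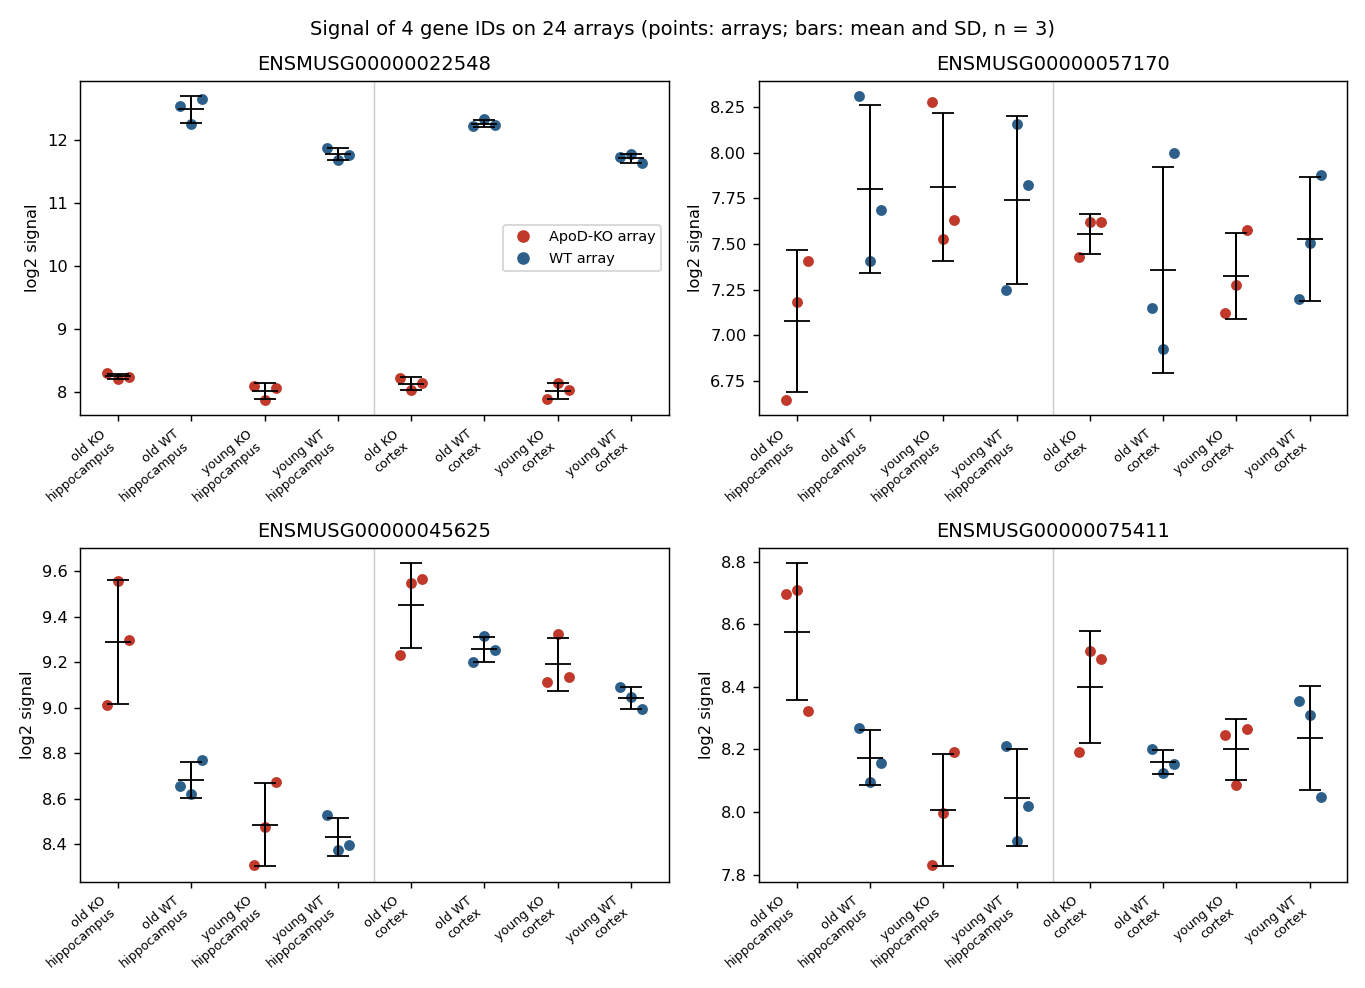
Log2 signal of the 4 named IDs (vertical axes) on each of the 24 arrays, by group (horizontal axes), with red points for KO, blue points for WT, and black bars for the mean and SD of 3 arrays. ENSMUSG00000022548 lies between 7.88 and 8.29 log2 on every KO array and between 11.63 and 12.66 log2 on every WT array, whereas for the other 3 IDs KO and WT do not overlap in old hippocampus and overlap at the other ages and regions, except for ENSMUSG00000045625 in young cortex. These 3 IDs were chosen for not overlapping in old hippocampus, so that part of the contrast was set by the choice.

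The effect of genotype in old hippocampus was then compared with that in young hippocampus, to ask whether ApoD loss has another effect at old age in this region. The test of the difference between both effects called 0 of 14327 IDs (0%) with limma. Its lowest adjusted p was 0.9993, and 581 IDs (4.06%, no excess over a share of 0.05) reached an unadjusted p under 0.05. Of these, 402 were higher and 179 lower, but without young KO hippocampus replicate 1 the split was 339 and 588. That array deviated most of all arrays from its group mean (root mean square 0.161 log2). Young KO hippocampus also had the largest median within-group SD, 0.109 log2, against 0.060 to 0.089 log2 in the other groups. Comparisons with young hippocampus carry this limit. For ENSMUSG00000022548 KO minus WT was -4.23 log2 in old and -3.76 log2 in young hippocampus. The difference was -0.47 log2 (SE 0.12), with a 95% interval of -0.73 to -0.21 log2. Its limma unadjusted p of 1.1e-03 had rank 13 among all tested IDs, and its adjusted p of 0.9993 missed the threshold. Behind this difference, KO pools averaged 8.25 log2 in old and 8.01 log2 in young hippocampus, and WT pools 12.49 and 11.78 log2.

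The 3 other named IDs had estimates near 0 in young hippocampus. KO minus WT of ENSMUSG00000045625 was 0.05 log2 there (95% interval -0.18 to 0.28), and the old minus young difference of the effects was 0.56 log2 (SE 0.16, limma adjusted p = 0.9993). For ENSMUSG00000075411 the young effect was -0.04 log2 (95% interval -0.27 to 0.20) and the difference 0.44 log2 (SE 0.16). For ENSMUSG00000057170 they were 0.07 log2 (95% interval -0.52 to 0.66) and -0.80 log2 (SE 0.40). None of these differences passed the adjusted threshold, and as the IDs were chosen in old hippocampus, their sizes are likely overstated.

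Old cortex is the group nearest in age but of the other region. The test of KO minus WT in old hippocampus against that in old cortex called 0 of 14327 IDs (0%) with limma. Its lowest adjusted p was 0.9994, and 493 IDs (3.44%, no excess over a share of 0.05) reached an unadjusted p under 0.05. ENSMUSG00000022548 had nearly the same effect in both, -4.23 log2 in hippocampus and -4.13 log2 in cortex, and the difference of -0.11 log2 had a 95% interval of -0.37 to 0.15. KO minus WT of ENSMUSG00000045625 was 0.19 log2 in old cortex (95% interval -0.04 to 0.42) and that of ENSMUSG00000075411 was 0.24 log2 (95% interval 0.003 to 0.47), both in the same direction as in hippocampus. ENSMUSG00000057170 went the other way in old cortex, by 0.20 log2, with a wide interval of -0.39 to 0.79.

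**Figure D3:**
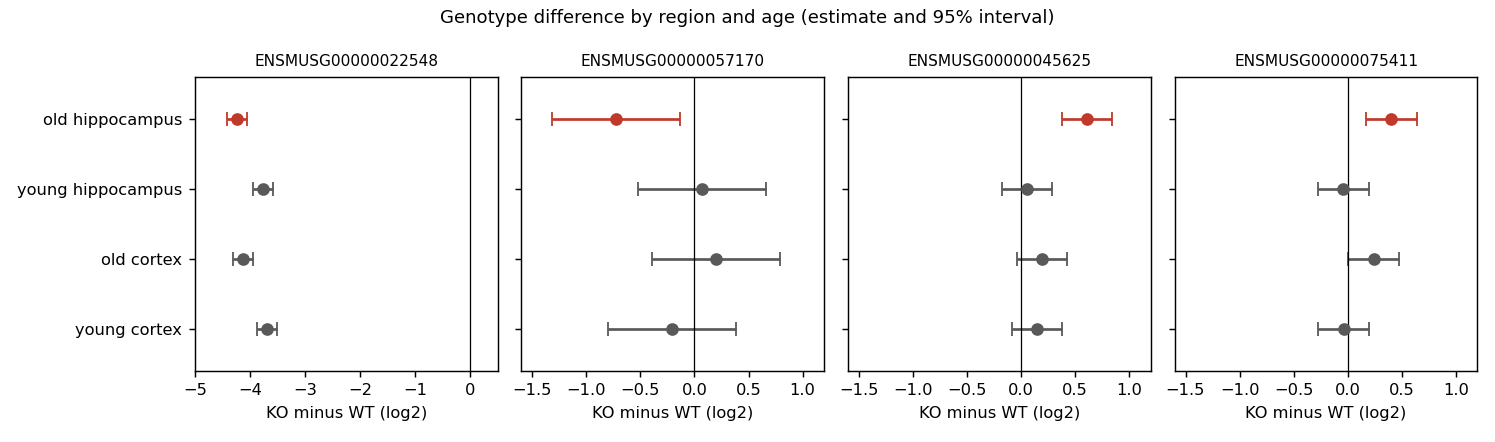
KO minus WT (horizontal axes, log2) of the 4 named IDs in each region and age (rows), with bars for the 95% interval from the limma fit. The effect of ENSMUSG00000022548 lies between -4.23 and -3.69 in all 4 rows, and the intervals of the other 3 IDs exclude 0 in old hippocampus but include it in the other rows, except for ENSMUSG00000075411 in old cortex. These 3 IDs were chosen by an unadjusted p under 0.05 in old hippocampus, so the choice itself fixed that their intervals exclude 0 there.

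The directions of the weaker differences were followed in the other comparisons, whose arrays are not those of old hippocampus, although pools of both regions may have come from the same animals. Of the 433 IDs other than ENSMUSG00000022548 with an unadjusted p under 0.05 in old hippocampus, 263 (60.7%) had the same sign in old cortex, where 53.5% of all tested IDs did. In young hippocampus 229 (52.9%) had the same sign, against 51.9% of all tested IDs, and in young cortex 196 (45.3%), against 49.9%. In old cortex and young hippocampus these shares rested on single pools of old hippocampus, with the IDs chosen anew under each setting (241 to 725 IDs). In old cortex the share was 73.5% without WT replicate 1 (58.46% of all tested IDs), 68.9% without KO replicate 1 (54.32%) and 48.5% without WT replicate 3 (48.95%), and after quantile normalization it was 54.7% (53.37%). In young hippocampus it was 61.6% without WT replicate 1 (54.65%) and 38.1% without WT replicate 3 (47.85%). In young cortex it stayed between 43.3% and 49.9% without each old hippocampus array in turn (47.61% to 51.79% of all tested IDs).

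An unadjusted p under 0.05 was reached by 5.91% of all tested IDs in old cortex, 6.56% in young hippocampus and 2.87% in young cortex. Of the 433 IDs, 30 reached it in old cortex with the same sign and 12 with the opposite sign. The counts were 16 and 16 in young hippocampus and 12 and 11 in young cortex. When an old hippocampus array was left out, the IDs were chosen anew, so their number differed. In old cortex the counts were 50 and 4 of 513 IDs without WT replicate 1. They were 18 and 4 of 241 IDs without KO replicate 1, and 10 and 15 of 373 IDs without WT replicate 3. In young hippocampus they were 35 and 11 of 513 IDs without WT replicate 1, and 6 and 25 of 373 IDs without WT replicate 3.

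Lists chosen in the other comparisons were also read in old hippocampus. The 647 IDs higher in old KO cortex at an unadjusted p under 0.05 had a median KO minus WT of 0.012 log2 in old hippocampus, and the 199 lower ones a median of -0.010 log2. The 224 IDs higher in young KO hippocampus had a median of 0.0076 log2, and the 715 lower ones a median of -0.012 log2. For all tested IDs the median was 0.0019 log2. In old hippocampus 58.4% and 45.7% of the IDs higher and lower in old KO cortex were higher in KO, and 55.4% and 42.2% of those higher and lower in young KO hippocampus, against 51.1% of all tested IDs. The medians of 3 of the 4 lists changed sign without 1 of the old hippocampus arrays, the exception being the IDs higher in old KO cortex. The lower list of old cortex had 0.013 log2 without WT replicate 3, and the higher and lower lists of young hippocampus had -0.0021 log2 without WT replicate 2 and 0.018 log2 without WT replicate 3.

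Because the study asks about age, IDs that change with age were taken from cortex, where 41 rose and 6 fell in both genotypes at an adjusted p under 0.05, and were read in hippocampus. The mean signal of the 41 IDs was 8.94, 8.93 and 8.94 log2 on the old KO hippocampus arrays, against 8.96, 8.86 and 8.91 log2 on the old WT arrays. The KO values lay inside the range of the WT values. In young hippocampus the same mean lay between 8.42 and 8.60 log2 in KO and between 8.46 and 8.55 log2 in WT, so the old arrays of both genotypes were higher than all young ones.

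Single IDs of this list varied around 0 in KO minus WT. In old hippocampus 25 of the 41 (61.0%) were higher in KO, with a median of 0.014 log2 and a range of -0.22 to 0.28, where 51.1% of all tested IDs were higher in KO and their median was 0.0019 log2. An unadjusted p under 0.05 was found for 2 higher and 1 lower of the 41, against 1.76% and 1.27% of all tested IDs. The 6 IDs that fell averaged 8.65, 8.64 and 8.69 log2 in old KO, against 8.72, 8.69 and 8.58 log2 in old WT hippocampus, again with KO inside the range of WT, and their median difference was -0.00026 log2. Both medians turned on single pools, the first being 0.055 log2 without WT replicate 1 and -0.00078 log2 without WT replicate 2, and -0.010 log2 under the filter at the 60th percentile, and the second 0.036 log2 without WT replicate 1 and -0.022 log2 without WT replicate 3. These lists are small, and their signal filter and spread were estimated from all 24 arrays.

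**Figure D4:**
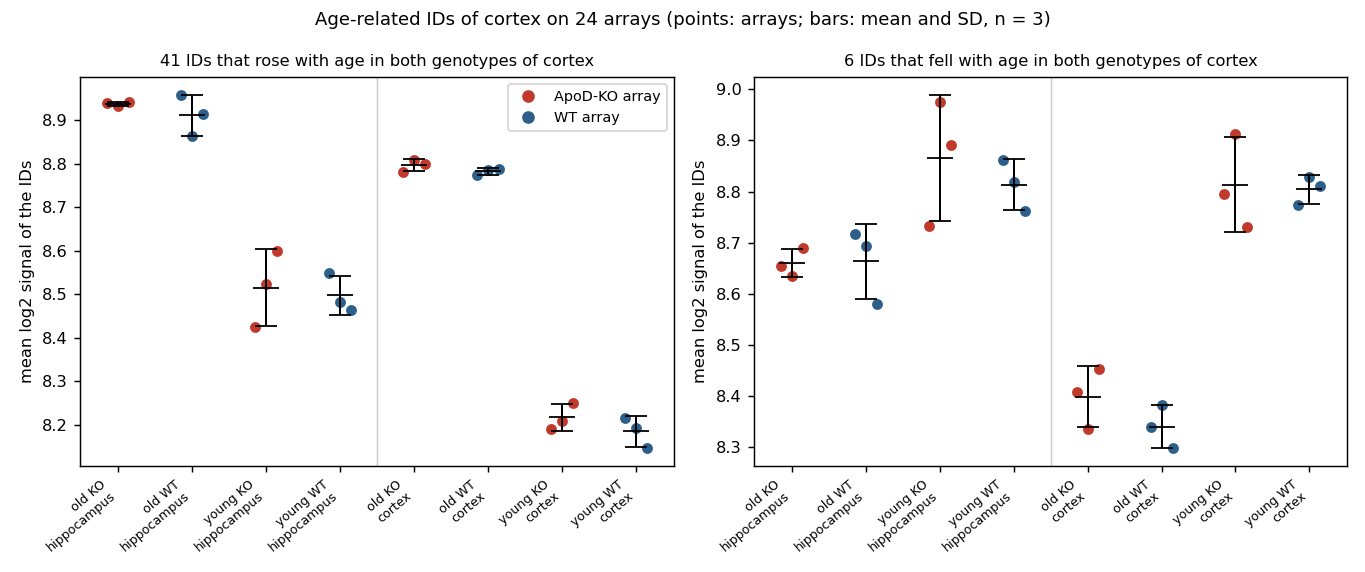
Mean log2 signal (vertical axes) of the 41 IDs that rose (left) and the 6 IDs that fell (right) with age in both genotypes of cortex, on each of the 24 arrays by group (horizontal axes), with red points for KO, blue points for WT, and bars for the mean and SD of 3 arrays. The cortex groups show the choice of the IDs, and in old hippocampus the 3 KO values lie within the range of the 3 WT values in both panels.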

How the data were processed

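The deposited values are log2 signals, 1 for each of 23879 Ensembl gene IDs and 24 arrays. They run from 3.99 to 14.4, and 0 are missing. The submitters' processing notes name MAS5 and RMA without their roles or versions. Array model, annotation and the joining of probes into IDs were not given in the sources used here. That the deposited values are log2 was read from their range and the similar array medians (7.31 to 7.42). The number of arrays limits the precision.

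R 4.3.3 with limma 3.58.1 was used, and Python 3.11.15 with matplotlib 3.10.9 for figures. IDs whose mean over the 24 arrays exceeded the 40th percentile (6.63 log2) were tested, and 9552 were left out. The 8 groups were fitted together (lmFit, 16 residual degrees of freedom, eBayes). Two-sided p-values were adjusted by Benjamini and Hochberg over the tested IDs of a comparison, with calls at an adjusted p under 0.05, to which "rose" and "fell" are kept. Intervals of 95% come from the moderated fit. The procedure was tested on simulated data. The rule for named genes (largest differences among IDs without overlap and with an unadjusted p under 0.05) was cut to 2 IDs in each direction, and 0 of the 23 planned gene lists could be run, because IDs have no names here. Groups, lists and comparisons were chosen with earlier results of these data known. Other filters, scalings, moderations, array subsets, array weights, a replicate block and leaving out each array were tried.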

Additional observations from a re-analysis of the deposited data

How the results depend on the processing

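ENSMUSG00000022548 kept its direction and call in each of 17 alternative fits, with a change of -4.35 to -4.15 log2 without 1 array and of -4.26 to -4.22 log2 otherwise, and limma adjusted p between 1.1e-20 and 6.2e-07. The count of called IDs in old hippocampus was 2 with array weights and between 1 and 2 without 1 array (2 without KO replicate 1), the second being ENSMUSG00000045625 both times. The differences from young hippocampus and from old cortex called 0 IDs in each of 21 alternatives. Counts at an unadjusted p under 0.05 were less stable. In old hippocampus, in place of 434, the count was 797 with no filter, 269 with a filter at the 60th percentile, 748 with array weights, 242 without KO replicate 1 and 726 without KO replicate 3. Against young hippocampus, in place of 581, it was 1069, 279 and 1229 in the same 3 fits, 927 without young KO replicate 1 and 875 without old KO replicate 3. Against old cortex, in place of 493, it was 810 with no filter, 833 with array weights, 314 without old WT cortex replicate 1, 754 without old WT cortex replicate 2 and 315 without old KO hippocampus replicate 1. Directions moved with the scaling and with single arrays, and against young hippocampus also with array weights. They moved with the filter at the 60th percentile too, to 145 higher and 134 lower against young hippocampus and 80 and 288 against old cortex. The replicate block gave 251 higher and 217 lower in old hippocampus. In old hippocampus 252 were higher and 182 lower, but 262 and 258 after quantile normalization and 223 and 207 after median centring. In the same order the splits were 402 and 179, 338 and 295, and 185 and 547 against young hippocampus, and 156 and 337, 229 and 304, and 136 and 424 against old cortex. The cause was not tested. The 9552 IDs below the filter held 0 calls in the unfiltered limma fit, with 347 at an unadjusted p under 0.05. The same-sign shares under other settings were added after the data were seen.

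Same-numbered KO and WT arrays of old hippocampus did not deviate together (correlations of -0.039, -0.093 and -0.278). Unlike-numbered arrays had correlations of -0.082 to 0.175. These values, from 3 arrays per group, cannot settle whether the numbers pair the samples. With the replicate block 1 ID was called (-4.23 log2, limma adjusted p = 4.2e-17), 468 had an unadjusted p under 0.05, and both differences of effects called 0. ENSMUSG00000057170 does not pass the stricter filter and has no value there.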
